A study of Homo sapiens with 35 samples.

Results

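TBX6 cells of the 72 h mesoderm culture were the barcodes in which at least 2 TBX6 transcript molecules were counted. They numbered 878 of the 5175 barcodes that met the same floors of depth and mitochondrial share, or 17.0% (exact binomial 95% interval 16.0 to 18.0). A molecule here is a UMI, a tag that marks 1 captured transcript. The floors were at least 5000 UMIs and at most 10% of UMIs from mitochondrial genes. The comparison group was the 2951 barcodes of the same library with 0 TBX6 UMIs, called TBX6-zero cells below, and the 1346 barcodes with exactly 1 TBX6 UMI lay just outside the rule. The cells were chosen by their TBX6 UMI count, so the TBX6 level of the cells is a description of the rule and not a result.

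The series holds 35 samples of H1, an established human embryonic stem cell line, of which 32 are bulk samples and 3 are single-cell libraries loaded after flow sorting. The library described here was labelled as mesoderm made with STEMdiff Mesoderm Induction, a commercial medium, at 72 h. The composition of the medium and the sort gate are not given in the sources used here. The other single-cell libraries carry the treatment AA+CHIR-AA, which is Activin A at 100 ng/ml throughout with the GSK3 inhibitor CHIR99021 at 3 µM on day 1. They were labelled as primitive streak cells at 36 h and definitive endoderm cells at 72 h. No genotype or transgene is named in the labels, and all 3 libraries share the H1 line and the droplet 3' chemistry. Each condition is 1 library, so cells are not replicates, no difference below has a test across samples, and intervals are exact 95% intervals that cover counting error only.

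TBX6 is a T-box transcription factor of the presomitic mesoderm, the tissue that leaves the primitive streak and later divides into somites. In embryos it acts downstream of Wnt and Notch signals, activates the Notch ligand DLL1 and holds back the neural fate of cells that leave the streak. TBXT (Brachyury), another T-box factor, marks the streak and the axial progenitors that feed the presomitic mesoderm, and both programmes overlap as cells move out. The segmentation clock, a cycle of Notch and Wnt targets that includes HES7, runs in the presomitic mesoderm.

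The mesoderm library held 6266 barcodes and 45.8 M (mega) UMIs, against a stated loading target of 1000 to 5000 cells. Of the barcodes, 1086 lay under the UMI floor and 5 above the mitochondrial limit. TBX6 cells had a median of 8412 UMIs (range 5022 to 23652), 2389.5 genes and 3.24% mitochondrial UMIs, and TBX6-zero cells a median of 8006 UMIs, 2289 genes and 3.48%. Barcodes above 16156 UMIs, which is 2 times the median depth and where droplets with more than 1 cell would be found, made up 1.48% of the TBX6 cells (13 barcodes) and 0.237% of the TBX6-zero cells (7 barcodes). Barcode sequences were shared with the 36 h library in 56 cases and with the endoderm library in 50, and 7 TBX6 cells shared a barcode with each.

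TBX6 counts in single cells were low. In the mesoderm library 57.0% of barcodes had 0 TBX6 UMIs, 26.0% had 1, 10.9% had 2, 4.10% had 3, 1.84% had 4 to 5 and 0.116% had 6 or more, with a maximum of 7. The mean was 0.686 UMIs per barcode and the variance 0.972, a ratio of 1.42, where counts drawn at random from a common level would give about 1. A count of 0 therefore does not show that a cell lacked TBX6 RNA. The groups compared below may overlap in their TBX6 level.

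TBX6 was far more frequent in this library than in the other single-cell libraries. Over all barcodes under the floors its level was 81.5 CPM (UMIs per M UMIs of the group) in the mesoderm library, 5.55 CPM at 36 h and 7.71 CPM in the endoderm library. After every barcode was thinned to 5000 UMIs, TBX6 was seen in 31.2% of mesoderm barcodes (29.9 to 32.5), 2.67% of 36 h barcodes and 3.40% of endoderm barcodes. Endoderm is a tissue that should lack TBX6. Free TBX6 RNA within the mesoderm library was not measured, and the endoderm share does not bound it. Without thinning the shares were 43.0%, 9.39% and 8.08%, at median depths of 8078, 25482 and 10763 UMIs. At 2 or more UMIs, the rule found 61 of 2919 barcodes at 36 h (2.09%) and 11 of 2650 in the endoderm library (0.415%). After thinning, 8.66% of mesoderm barcodes still held at least 2 TBX6 UMIs, against 0.240% and 0.0377%.

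**Figure D1:**
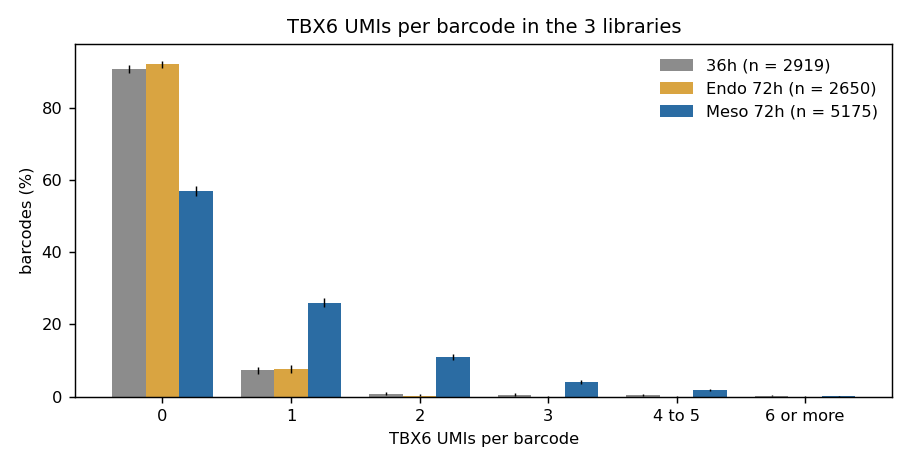
Share of barcodes (%, vertical axis) by the number of TBX6 UMIs per barcode (horizontal axis) in the 36 h, endoderm and mesoderm libraries, with exact binomial 95% intervals, without thinning. The mesoderm bars at 2 and more UMIs, 10.9% at 2 and 4.10% at 3, stand above those of the other libraries at every class up to 5 UMIs.

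Positions are those of GENCODE release 29 on GRCh38, where every gene of this paragraph is of the protein-coding type. TBX6 lies on chromosome 16 (30085793 to 30091887), APLNR on chromosome 11 (57233577 to 57237314) and MSX1 on chromosome 4 (4859666 to 4863936). RSPO3 lies on chromosome 6 (127118604 to 127197765), DLL1 on the same chromosome (170282206 to 170306565), PDGFRA on chromosome 4 (54229097 to 54298247) and MESP1 on chromosome 15 (89748661 to 89751310). ID2 lies on chromosome 2 (8678845 to 8684453), NKX1-2 on chromosome 10 (124445239 to 124450184) and TBXT on chromosome 6 (166157656 to 166168700).

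Of the markers given for these cells, TBX6 chose them and APLNR followed it, while MSX1 did not. APLNR, the apelin receptor of early migrating mesoderm, stood at 193 CPM in TBX6 cells (183 to 203) and 83.1 CPM in TBX6-zero cells (79.5 to 86.7), a log2 ratio of 1.22. At 5000 UMIs it was seen in 58.7% of TBX6 cells and 27.9% of TBX6-zero cells. MSX1, a homeobox target of BMP signalling, stood at 203 CPM (193 to 214) and 197 CPM (191 to 202). Its log2 ratio was 0.05 (−0.03 to 0.13), so MSX1 was at about the same level on both sides of the TBX6 rule within this library, and its sign turned under other settings. The level of MSX1 in the library as a whole was 197 CPM, against 4.04 CPM at 36 h and 2.00 CPM in the endoderm library.

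Presomitic markers were present in part. MSGN1, a factor of the presomitic mesoderm, was at 3.89 CPM in TBX6 cells (2.62 to 5.55) and 2.20 CPM in TBX6-zero cells (1.65 to 2.87), and MESP2, which marks the next somite to form, was at 2.46 and 2.85 CPM. Of the 16 genes of the presomitic and paraxial list 5 had no UMI in TBX6 cells. The clock and ligand genes of the same list were present: DLL1, DLL3, HES7 and RSPO3 all exceeded 20 CPM. The name of the group rests on TBX6 alone.

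Across all genes, the library's TBX6 contrast was modest. Genes were compared where either group reached 20 CPM, TBX6 itself left out. Of these 4657 genes, 103 were at least 1.5-fold higher in TBX6 cells (2.21%) and 51 at least 1.5-fold lower (1.1%). At 2-fold the numbers were 30 (0.644%) and 13 (0.279%). Counts for the gene lists below are to be read beside the shares at 1.5-fold. Some genes reached 20 CPM in 1 group and were so low in the other that the floor itself put them past 1.5-fold, among them PDGFRA, SPRY1 and HOXB5 on the higher side and NKX1-2 on the lower. Without all such genes, 88 of 4628 were higher (1.9%) and 37 lower (0.799%). Without the barcodes above 16156 UMIs, 105 and 56 genes were past 1.5-fold. The median log2 ratio over all 4657 genes was 0.01.

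Secreted signals and their modulators were among the higher genes. RSPO3, which enhances Wnt signalling and is made by the streak and presomitic mesoderm, was at 83.3 CPM in TBX6 cells (77.0 to 90.0) and 37.5 CPM in TBX6-zero cells (35.1 to 40.0). WNT5A, a Wnt ligand of the elongating body axis, was at 66.5 CPM (60.8 to 72.5) and 33.9 CPM (31.6 to 36.3). The intervals of the groups did not overlap for either gene. They cover counting error only, and they also stood apart for MIXL1, which was within 1.5-fold. The share of all genes with separate intervals was not counted. FGF17, an FGF ligand of the streak, was at 165 and 102 CPM, and BMP4, a ligand that directs mesoderm towards lateral fates, at 28.9 and 16.1 CPM. NTS, the precursor of the peptide neurotensin, was at 158 and 80.0 CPM.

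The Notch ligands DLL1 and DLL3 and the HES factors HES6 and HES7 were higher in TBX6 cells. DLL1, the main Notch ligand of the presomitic mesoderm, was at 45.1 CPM in TBX6 cells (40.5 to 50.1) and 23.7 CPM in TBX6-zero cells (21.8 to 25.7), a log2 ratio of 0.93. DLL3, a divergent ligand that dampens Notch signalling, was at 27.3 and 16.5 CPM (log2 ratio 0.73). HES7, the oscillating repressor of the segmentation clock, was at 50.8 CPM (45.9 to 56.1) and 30.1 CPM (28.0 to 32.4). HES6, a member of the same family, was at 96.3 and 49.2 CPM. These are the 4 genes past 1.5-fold among the 6 of the 19 Notch list genes that reached 20 CPM. Over all genes compared 2.21% were that much higher. NOTCH1 and RBPJ, the receptor and the DNA-binding partner of Notch, had log2 ratios of 0.34 and 0.08. LFNG, which glycosylates Notch receptors, stayed under the floor at 15.8 and 7.08 CPM.

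Several of the higher genes encode receptors and adhesion molecules. PDGFRA, the receptor by which mesoderm cells leave the streak in response to PDGF, was at 36.3 CPM in TBX6 cells (32.1 to 40.8) and 11.0 CPM in TBX6-zero cells (9.72 to 12.4), a 3.30-fold difference. CXCR4, a chemokine receptor of both early mesoderm and endoderm, was at 97.2 CPM (90.3 to 104) and 42.6 CPM (40.0 to 45.3). ROBO1, a guidance receptor for Slit ligands, was at 68.0 and 36.3 CPM. CDH11, a cadherin of mesenchymal cells, was at 65.4 and 34.5 CPM, and CLDN11, a tight-junction protein, at 56.9 and 26.5 CPM. PDGFRA was so low in TBX6-zero cells that reaching 20 CPM in TBX6 cells was enough to put it past 1.5-fold.

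Transcription factors outside the presomitic and paraxial list were higher as well. MESP1, the factor of the earliest cardiac and cranial mesoderm, was at 41.8 CPM in TBX6 cells (37.4 to 46.7) and 20.4 CPM in TBX6-zero cells (18.6 to 22.2). GATA6, shared by cardiac mesoderm and endoderm, was at 30.7 and 13.4 CPM, and TBX3, a T-box repressor, at 58.8 and 29.6 CPM. SNAI1, the repressor that drives epithelial cells into a mesenchymal state, was at 27.1 CPM (23.5 to 31.0) and 14.6 CPM (13.1 to 16.2). Of the 20 genes of the lateral and cardiac list 7 reached 20 CPM, with a median log2 ratio of 1.04. Of these 6 were past 1.5-fold, where 2.21% of all genes compared were that much higher, and MSX1 was the exception. Without PDGFRA the numbers were 5 of 6 and 1.01, where 1.9% of all genes without a fixed call were higher. HAND1, GATA4 and FOXF1 of that list stayed at or under 10.5 CPM in both groups.

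HOX genes differed unevenly. HOXB1 was at 124 CPM in TBX6 cells and 74.2 CPM in TBX6-zero cells, HOXB2 at 25.5 and 16.1 CPM and HOXB3 at 43.9 and 23.2 CPM. With HOXB5, at a log2 ratio of 1.16, these were the 4 past 1.5-fold of the 11 HOX and CDX genes at 20 CPM or more. Over all genes compared 2.21% were that much higher. The gene floor fixed the call of HOXB5. Without genes of fixed call 3 of 10 were higher, against 1.9% of all genes. HOXA3, HOXB4 and HOXB7 had log2 ratios of 0.49, 0.47 and 0.19, and CDX2, an upstream activator of HOX genes, one of −0.14. HOXA-AS3, an antisense RNA of the HOXA cluster, was at 85.9 and 36.8 CPM. Whether the counting used strand is not given in the sources used here, so its UMIs cannot be told apart from those of overlapping HOXA transcripts.

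Other leading genes belonged to none of the gene lists. HVCN1, a voltage-gated proton channel, had the largest log2 ratio, 1.48, of the genes at 50 CPM or more, with 56.0 CPM in TBX6 cells (50.8 to 61.5) and an interval of 18.3 to 21.9 CPM in TBX6-zero cells. SYT1, a calcium sensor of vesicle release, was at 289 and 144 CPM, and was seen at 5000 UMIs in 69.2% and 43.1% of cells. IFT57, a part of the transport complex of cilia, was at 156 and 75.6 CPM, and LIX1 at 80.7 and 41.0 CPM.

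NKX1-2 and ID2 had the largest differences on the lower side among the named genes at 20 CPM or more. NKX1-2, a homeobox factor of the caudal epiblast and of progenitors that can give neural tissue or mesoderm, was at 7.13 CPM in TBX6 cells (5.37 to 9.27) and 34.1 CPM in TBX6-zero cells (31.8 to 36.5). It was 4.78-fold lower, on 55 and 837 UMIs. ID2, an inhibitor of basic helix-loop-helix factors induced by BMP, was at 88.4 CPM (81.8 to 95.2) and 199 CPM (193 to 205), a log2 ratio of −1.17. Its relatives ID1 and ID3 had log2 ratios of 0.21 and −0.29.

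The neurofilament genes NEFM and NEFL were lower, NEFM at 25.7 CPM in TBX6 cells (22.2 to 29.5) and 56.9 CPM in TBX6-zero cells (54.0 to 60.0), and NEFL at 49.4 and 93.9 CPM. MAP1B, a microtubule protein of growing axons, was at 209 and 322 CPM, and CNTNAP2, a neurexin family adhesion protein, at 118 and 214 CPM. Neural fate genes themselves were near 0: SOX1 and PAX6 had no UMI in either group, and SOX2 was at 1.43 CPM (0.711 to 2.55) and 4.60 CPM (3.79 to 5.53). The summed level of the neural list was 33.9 CPM in TBX6 cells and 66.5 CPM in TBX6-zero cells, with NKX1-2, whose call the floor fixed, and ZIC2 (log2 ratio 0.19) as its only genes at 20 CPM or more.

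Genes of pluripotent cells did not move as a group. DPPA4, a chromatin protein of pluripotent cells, was at 33.8 CPM in TBX6 cells (29.8 to 38.2) and 58.2 CPM in TBX6-zero cells (55.2 to 61.3). POU5F1, the core pluripotency factor that is still present in early mesoderm, was at 421 and 446 CPM, and L1TD1 and TDGF1 had log2 ratios of 0.39 and 0.45. DPPA4 was the 1 gene past 1.5-fold among the 10 of the list at 20 CPM or more, and the median log2 ratio was −0.07. NANOG was at 1.94 and 4.32 CPM.

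Genes of Wnt feedback and metabolism stood on both sides. RNF43, a Wnt target that removes Wnt receptors, was at 21.9 CPM in TBX6 cells (18.7 to 25.5) and 41.7 CPM in TBX6-zero cells (39.2 to 44.4), and AXIN2, a general Wnt target, had a log2 ratio of −0.45. LEF1, a nuclear partner of beta-catenin, differed the other way at 56.1 and 35.6 CPM. Of the 14 Wnt genes at 20 CPM or more, WNT5A, LEF1 and RSPO3 were past 1.5-fold higher and RNF43 past 1.5-fold lower, with a median log2 ratio of −0.05. SLC2A3, a glucose transporter, was at 102 and 170 CPM and SLC7A5, an amino acid transporter, at 32.1 and 54.3 CPM, while LDHA, the lactate-forming enzyme of glycolysis, was at 1359 and 1080 CPM. TNFRSF12A (44.4 and 87.2 CPM), ADGRV1 (39.4 and 74.2 CPM) and NMRK2 (44.6 and 75.4 CPM) were also lower.

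CDKN1A, which encodes the cell cycle inhibitor p21, was at 36.0 CPM in TBX6 cells (31.9 to 40.5) and 66.2 CPM in TBX6-zero cells (63.0 to 69.5). Its promoter was the only one found among the genes past 1.5-fold to hold the T-box motif TCACACCT (reverse strand AGGTGTGA, both strands searched) in the RefSeq windows from 250 bases before to 50 bases after a start. Windows were found for 69 of the 103 higher genes and 33 of the 51 lower genes. The motif stood in 0 of 115 windows of higher genes and 1 of 50 windows of lower genes, against 0.538% of the 5390 windows of all genes compared and 0.98% of all 35116 windows. The CDKN1A match is shown with 10 bases on each side because it is the single match, on GRCh38.p14, plus strand, at chr6:36678705-36678732, with the motif in capitals at bases 252 to 259 of the 300-base window, just after the annotated start.
CDKN1A: gcgccagctgAGGTGTGAgcagctgccg
The absence of these letters from the windows of higher genes says nothing about binding elsewhere.

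**Figure D2:**
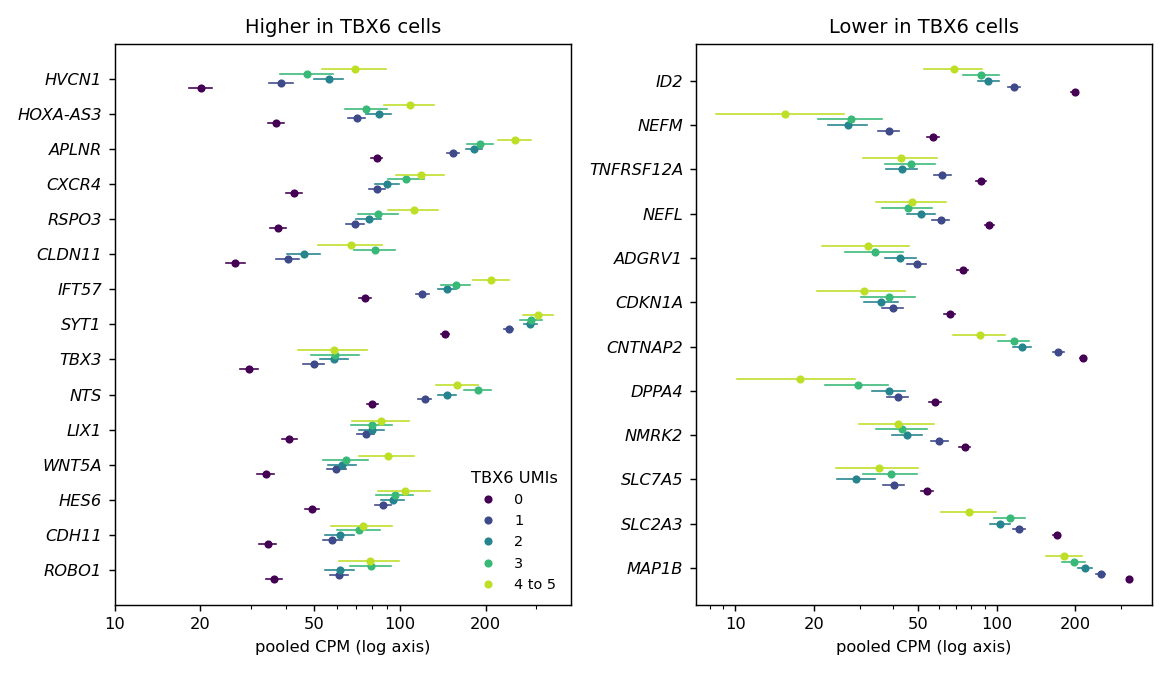
Pooled CPM (log axis) with exact Poisson 95% intervals of the 15 leading higher genes (left) and 12 of the 13 leading lower genes (right) in barcodes with 0, 1, 2, 3 and 4 to 5 TBX6 UMIs of the mesoderm library. For every gene shown the 1-UMI point lies between the point of 0 UMIs and the level of all TBX6 cells pooled, which is not drawn. For APLNR these are 83.1, 154 and 193 CPM. The genes were picked for the ratio between the outer groups.

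Levels followed the TBX6 count in steps. The leading genes were those with the largest ratios past 1.5-fold at 50 CPM or more, 15 higher and, since no more met the rule, 13 lower. APLNR was at 83.1, 154, 182, 191 and 253 CPM in barcodes with 0, 1, 2, 3 and 4 to 5 TBX6 UMIs. ID2 was at 199, 117, 93.0, 87.2 and 68.6 CPM, and NKX1-2 at 34.1, 15.9, 8.33, 4.91 and 5.53 CPM. The largest step lay between 0 and 1 UMI for these 3 genes.

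In all 15 leading higher and all 13 leading lower genes the 1-UMI barcodes lay between the TBX6-zero cells and the TBX6 cells. The genes were picked for their ratio between these outer groups in the same library, so this is a description and not a test. The share of all genes with such an order was not counted. Their median log2 ratio to TBX6-zero cells was 0.82 for the higher genes, against 1.00 in TBX6 cells, and −0.49 for the lower genes, against −0.87. The order from 0 to 3 UMIs was unbroken in 13 of the 15 and 7 of the 13. MESP1 was an exception among the named genes outside these sets, at 46.3 CPM in barcodes with 2 TBX6 UMIs and 29.4 CPM at 3. The class of 6 or more UMIs held 6 barcodes and is not read.

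Depth differed slightly between the classes, with a median of 7992 UMIs at 1 TBX6 UMI, 8338 at 2 and 8922 at 4 to 5. Within bands of depth from 5000, 7500 and 10000 UMIs, all 15 and all 13 genes kept their direction. The genes were picked for their ratios in the same barcodes, so this is a description and not a test. APLNR had log2 ratios of 1.02, 1.35 and 1.38 in the bands, ID2 ones of −1.11, −1.27 and −1.11, and DLL1 ones of 0.56, 1.10 and 1.17. MAP1B, DLL1, HOXB1 and HOXB2 were under 1.5-fold in the shallowest band, and SLC7A5, FGF17, LEF1 and STRA6 in the deepest.

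Markers of other cell types were scarce in TBX6 cells. Blood and endothelium summed to 39.9 CPM in TBX6 cells and 29.6 CPM in TBX6-zero cells over 13 genes, with TAL1 and CDH5 at 0 UMIs and KDR at 11.1 and 9.89 CPM. The amnion and trophoblast list summed to 5.83 and 4.07 CPM over 11 genes, with VTCN1 at 0. The endoderm list summed to 107 and 54.0 CPM over 13 genes, of which CXCR4 made up 97.2 and 42.6 CPM, with SOX17 at 0 UMIs in both groups and FOXA2 at 0.13 and 0.977 CPM. The endoderm markers SOX17 and FOXA2 were thus at or near 0 in the pooled TBX6 cells, where CXCR4 and GATA6 were higher than in TBX6-zero cells.

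The summed levels of cycling genes and the median of stress genes differed little. None of the 16 S phase genes and none of the 21 genes of G2 and mitosis at 20 CPM or more was past 1.5-fold. Over all genes compared 2.21% were higher and 1.1% lower, so no call in lists of this size is close to that share. The summed levels in TBX6 and TBX6-zero cells were 985 and 983 CPM for S phase and 2376 and 2221 CPM for G2 and mitosis. The 4 immediate early and heat shock genes had a median log2 ratio of 0.03. The epithelial and mesenchymal list was mixed: SNAI1, CDH11 and FN1 (29.4 and 18.0 CPM) were past 1.5-fold, while CDH1, EPCAM and CDH2, the cadherins and adhesion molecule of epithelial and mesenchymal cells, had log2 ratios of −0.23, −0.30 and 0.10. Of the matrix list HAS2, which makes hyaluronan, and FBN2, a fibrillin, were past 1.5-fold, at 77.1 and 50.1 CPM and at 29.8 and 18.2 CPM.

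**Figure D3:**
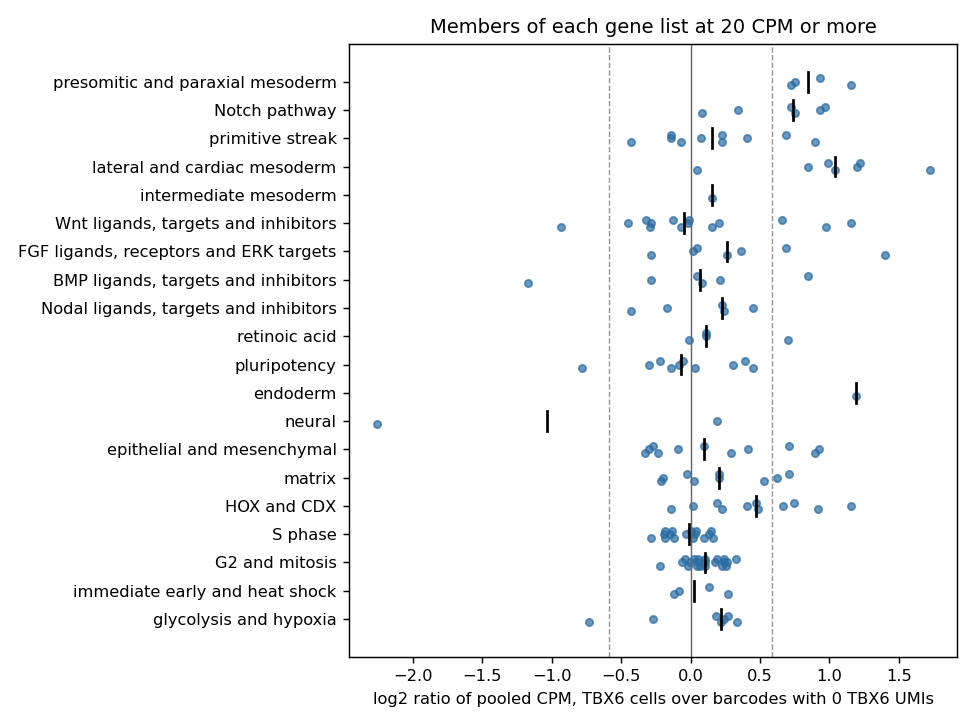
Log2 ratio of pooled CPM, TBX6 cells over TBX6-zero cells (horizontal axis), for each gene at 20 CPM or more (points) of the lists with such genes, with the list's median (black bar) and dashed lines at 1.5-fold. Presomitic and Notch genes have medians of 0.84 and 0.74 and the lateral and cardiac list 1.04, while the S phase list sits at −0.01. The presomitic median rests on 4 of 16 listed genes and the Notch median on 6, and DLL1, DLL3 and HES7 are in both lists.

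The retinoic acid and primitive streak lists stayed closer to the median of all genes. STRA6, a retinol transporter, was the 1 retinoic acid gene past 1.5-fold of 4, at 29.5 and 18.2 CPM. ALDH1A2, which makes retinoic acid in paraxial mesoderm, lay under the floor at 15.4 CPM in TBX6 cells (12.8 to 18.4) and 3.58 CPM in TBX6-zero cells (2.87 to 4.41), and is named after its values were seen. Of 10 streak genes FGF17 and SNAI1 were past 1.5-fold. MIXL1, a streak homeobox factor, was at 189 CPM (179 to 199) and 254 CPM (248 to 261), and EOMES, the T-box factor of the early streak, at 2.07 and 5.66 CPM.

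TBXT, the streak and progenitor factor, was present on both sides of the TBX6 rule, at 302 CPM in TBX6 cells (290 to 314) and 332 CPM in TBX6-zero cells (325 to 340). TBX6 cells were split by their TBXT count into 140 with 0 UMIs (15.9%), 353 with 1 to 2 (40.2%) and 385 with 3 or more (43.8%). In TBX6-zero cells the shares were 12.6%, 39.2% and 48.2%. Depth differed along this split, with medians of 7929.5, 8074 and 9014 UMIs in TBX6 cells, and its part in the values below was not tested.

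Within the TBX6 cells, the leading genes differed with TBXT. All 15 leading higher genes were higher, and all 13 leading lower genes lower, in TBX6 cells with 0 TBXT UMIs than in those with 3 or more. CLDN11 was at 97.7 CPM (80.3 to 118) and 30.0 CPM (24.6 to 36.2), a 3.26-fold difference. CXCR4 was at 144 CPM (123 to 168) and 75.1 CPM (66.4 to 84.5), and LIX1 at 118 and 60.0 CPM. In TBX6-zero cells split the same way, 13 of the 15 higher genes but 6 of the 13 lower genes had the same direction along TBXT. CLDN11 was at 36.8 and 23.4 CPM there and CXCR4 at 57.6 and 33.6 CPM. ID2 went the other way in TBX6-zero cells, at 223 and 184 CPM against 71.9 and 98.5 CPM in TBX6 cells, and CDKN1A was at 83.7 and 59.0 CPM against 34.6 and 39.6 CPM.

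Some genes followed TBXT within the TBX6 cells. NEFM was at 7.99 CPM with 0 TBXT UMIs (3.65 to 15.2) and 34.1 CPM with 3 or more (28.4 to 40.7), and CNTNAP2 at 50.6 CPM (38.3 to 65.6) and 144 CPM (132 to 156). DPPA4 was at 18.6 and 41.3 CPM. MESP1, higher in TBX6 cells as a whole, was at 24.9 CPM with 0 TBXT UMIs (16.5 to 35.9) and 51.4 CPM with 3 or more (44.3 to 59.4). It differed alike in TBX6-zero cells, at 11.8 and 24.3 CPM. NEFM (49.7 and 62.2 CPM), CNTNAP2 (194 and 219 CPM) and DPPA4 (47.6 and 59.4 CPM) differed less there. DLL1, at 44.4 and 44.0 CPM, and HES7, at 50.6 and 46.8 CPM, lay close together on both sides of the TBXT split, while DLL3 was at 41.7 and 20.6 CPM. ALDH1A2 was at 39.1 CPM (28.4 to 52.4) and 7.70 CPM (5.12 to 11.1).

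Within the TBXT classes the leading genes are described and not tested, since they were picked for their ratios in these same cells. Among cells with 0 TBXT UMIs, all 15 and all 13 leading genes kept their direction and all were past 1.5-fold. Among cells with 1 to 2, all kept their direction and all were past 1.5-fold. Among cells with 3 or more, all kept their direction, and 14 of the 15 and 7 of the 13 were past 1.5-fold. APLNR was 2.42-fold and 2.20-fold higher in TBX6 cells within the classes of 0 and of 3 or more TBXT UMIs, and MESP1 2.11-fold in each. CLDN11 was 2.65-fold and 1.28-fold higher.

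**Figure D4:**
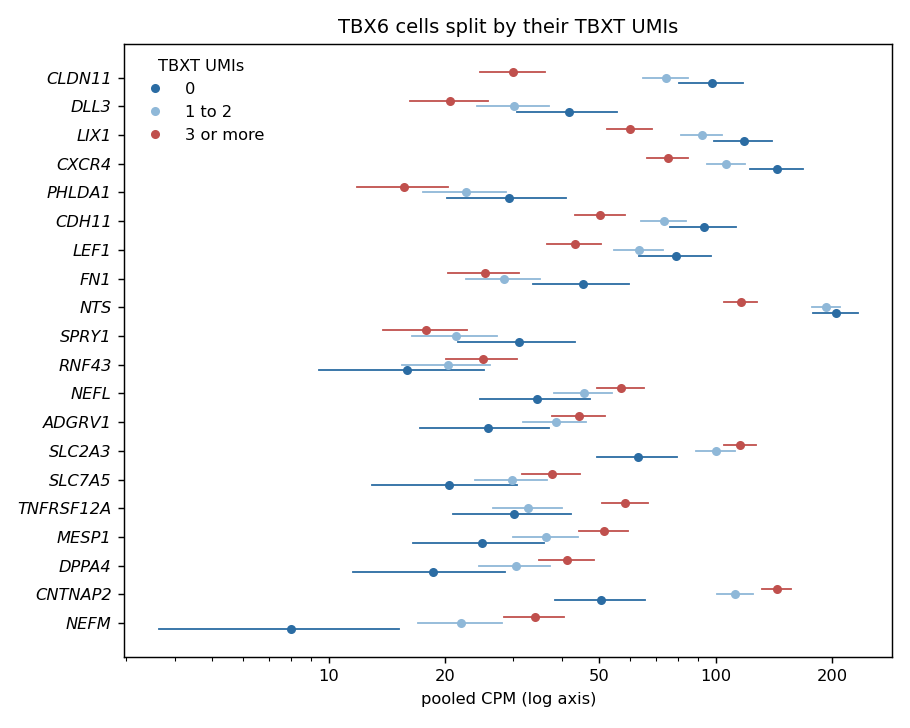
Pooled CPM (log axis) with exact Poisson 95% intervals in TBX6 cells with 0, 1 to 2 and 3 or more TBXT UMIs, for the named genes with the largest differences between the outer classes. CLDN11 runs from 97.7 to 30.0 CPM and NEFM from 7.99 to 34.1 CPM as TBXT goes from 0 to 3 or more UMIs.

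The same rule in the 36 h library found 61 cells. The mesoderm genes named in this paragraph had larger ratios to TBX6-zero cells there than in the mesoderm library. Those cells had a median of 29391 UMIs and the 2645 TBX6-zero cells one of 25299. APLNR was at 154 CPM in the TBX6 cells of 36 h (136 to 173) and 3.23 CPM in the TBX6-zero cells of that library. PDGFRA was at 32.3 and 1.69 CPM, MESP1 at 21.9 and 1.06 CPM, and GATA6 at 119 and 6.21 CPM. At 36 h MSX1, which did not separate the groups at 72 h, was at 39.9 CPM (31.3 to 50.2) and 2.20 CPM. Each of these genes was so low in the TBX6-zero cells of 36 h that the gene floor of 20 CPM fixed its direction. Their direction is therefore not a result. Other mesoderm genes, among them DLL1 and HES7, were barely seen in the TBX6 cells of 36 h, as given below.

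The streak genes also separated the groups at 36 h. TBXT was at 93.5 CPM in TBX6 cells (80.0 to 109) and 24.7 CPM in TBX6-zero cells, MIXL1 at 540 and 108 CPM and DKK1, a secreted Wnt inhibitor, at 636 and 53.9 CPM. In the mesoderm library DKK1 was at 1489 and 1291 CPM. EOMES was at 194 and 63.2 CPM at 36 h. The libraries differ in medium as well as in time, so these cannot be told apart, and the difference between the contrasts was not tested.

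HOXB genes and clock genes were at or near 0 at 36 h. HOXB1 had 1 UMI in the TBX6 cells of 36 h (0.547 CPM), and CDX2 and CDX4 were at 2.19 and 2.73 CPM. HOXB2, HOXB3 and HOXB5 had 0 UMIs in these cells, among 1.83 M UMIs, which gives an exact upper bound of 2.02 CPM. HES7 was at 0.547 CPM and DLL1 at 1.64 CPM (0.338 to 4.79) in these cells. RSPO3 was at 14.2 CPM (9.29 to 20.8) and 0.314 CPM in the TBX6-zero cells of that library.

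Of the 15 leading higher genes of the mesoderm library 6 reached 20 CPM at 36 h. APLNR, LIX1 and ROBO1 did so only in the TBX6 cells and were so low in TBX6-zero cells that the floor fixed their direction, and they are not counted. IFT57, SYT1 and NTS were higher in TBX6 cells and 1 of these 3, NTS, was past 1.5-fold, where 3.97% of the 4457 genes compared at 36 h were. Of the 13 leading lower genes 11 reached 20 CPM, 10 were lower and 6 past 1.5-fold, where 3.88% of all genes were. NKX1-2 was at 6.56 and 25.7 CPM and ID2 at 43.7 and 118 CPM in TBX6 and TBX6-zero cells of 36 h. The floor fixed the direction of NKX1-2 there as well. The 11 endoderm barcodes found by the rule held 0.162 M UMIs in all and give no levels worth reading.

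**Figure D5:**
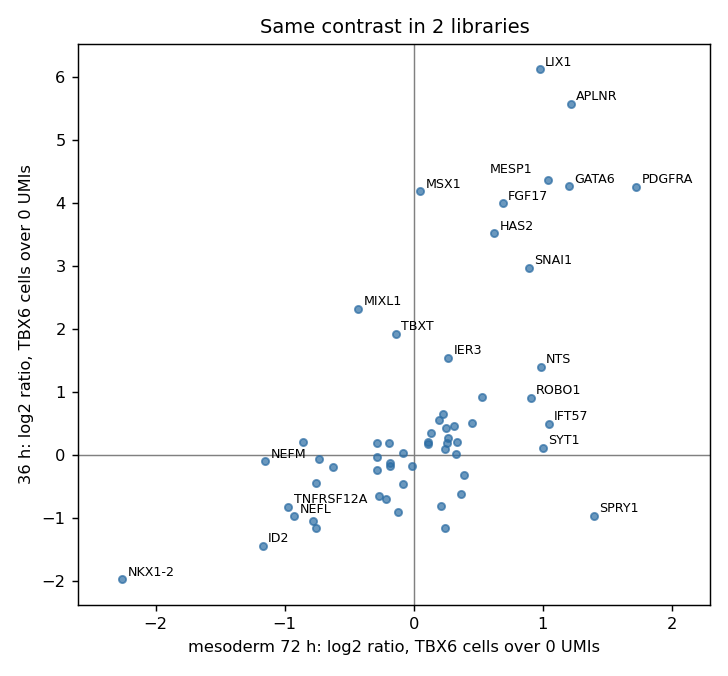
Log2 ratio of pooled CPM, TBX6 cells over TBX6-zero cells, in the mesoderm library (horizontal axis) and at 36 h (vertical axis), for 58 named genes at 20 CPM or more in both, without intervals. ID2 is lower in both libraries, and SPRY1 lies higher in mesoderm at 1.40 and lower at 36 h at −0.96. The gene floor itself fixed the direction of PDGFRA and NKX1-2 in both libraries. It also fixed that of APLNR, LIX1, ROBO1, GATA6, MESP1 and MSX1, among others, at 36 h and of SPRY1 in mesoderm.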

How the data were processed

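Per the labels' protocols, single cells of 3 H1 libraries were sorted and prepared with a droplet 3' kit. The authors deposited UMI counts per gene and barcode, made with Cell Ranger 3.0.2 per the file headers; GRCh38 and Seurat 4.0.2 are listed in the submitters' processing notes. Bulk samples and a matrix that aggregates the same cells were not used here.

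UMIs of a group were summed and divided by the group's total (CPM), in Python 3.11.15 with numpy 2.4.6, scipy 1.17.1 and pandas 2.3.3. No doublet caller was run; leaving out barcodes above 2 times the median depth was an alternative instead. Thinning drew 5000 UMIs per barcode without replacement, with a fixed seed. Ratios were tested on simulated data.

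The cells, the 22 gene lists and the tests were chosen with earlier results of these data known. Named were the 15 largest ratios in each direction past 1.5-fold at 50 CPM or more (40 clone or duplicate identifiers left out), up to 4 genes with the largest ratio per list at 20 CPM or more, and fixed cell type markers. Other genes of a list are given where its count is described. Some genes that met this rule are not reported here.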

Additional observations from a re-analysis of the deposited data

Results flagged for a closer look

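SPRY1, a feedback inhibitor of FGF signalling, drew attention because its difference between TBX6 cells and TBX6-zero cells had opposite directions in 2 libraries. In the mesoderm library SPRY1 was at 21.1 CPM in TBX6 cells (18.0 to 24.6) and 8.02 CPM in TBX6-zero cells (6.94 to 9.22), a log2 ratio of 1.40. There the gene floor of 20 CPM fixed its direction. At 36 h it was at 25.2 CPM (18.4 to 33.6) and 48.8 CPM, a log2 ratio of −0.96. Each condition is 1 library, and the difference was not tested.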

How the results depend on the processing

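No paired analysis was possible because the comparison lies within 1 library and the result comes from no test. The share of TBX6 cells was 17.0%, 20.1% with a floor of 10000 UMIs, 8.66% when chosen after thinning and 6.05% at 3 or more TBX6 UMIs. The 103 higher and 51 lower genes became 145 and 94 at 3 or more TBX6 UMIs, 67 and 30 at 1 or more, 30 and 13 at 2-fold, 292 and 262 with a gene floor of 5 CPM, and 37 and 14 with one of 50 CPM. In depth bands, added after seeing the data, the numbers were 146 and 111 from 5000 UMIs, 133 and 89 from 7500 and 130 and 73 from 10000. With depth weighting, selection after thinning, means of per-barcode CPM, a 5% mitochondrial limit, a floor of 10000 UMIs, no barcodes above 2 times the median and centring on the median, 90 to 130 genes were higher and 51 to 73 lower. Without the genes whose call the gene floor fixes, also added after seeing the data, 88 were higher and 37 lower. Of these settings 12 kept the fold and the gene floor, among which the floor of 10000 UMIs and the band from 10000 UMIs are the same cells. None of the 49 named genes past 1.5-fold changed direction over the 12, but they were past 1.5-fold in the same library to begin with. Of the 38 named genes within 1.5-fold, 15 changed direction in at least 1 setting, among them MSX1, ID1, CDK1, TOP2A, KIF23, IER2 and ZIC2. All 15 leading higher genes stayed past 1.5-fold in each of these settings except those that move the fold or the gene floor, which were counted over all genes only, and at least 12 of the 13 leading lower genes did, apart from 8 at 1 or more TBX6 UMIs. There CNTNAP2, NMRK2, SLC7A5, SLC2A3, MAP1B, DLL3, LEF1, FN1, FBN2 and HOXB2 no longer reached 1.5-fold. MAP1B, DLL1, HOXB1 and HOXB2 did not reach it in the band from 5000 UMIs, nor SLC7A5, FGF17, LEF1 and STRA6 from 10000 UMIs, SLC7A5 and HAS2 at 3 or more TBX6 UMIs, and MAP1B, FN1, FBN2 and HAS2 with selection after thinning. Depth per cell limits the TBX6 count: a barcode near 5000 UMIs can hold TBX6 RNA and show 0 UMIs.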

Other observations

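Further genes past 1.5-fold lay outside the naming rule and were chosen after their values were seen. For MEIS2, ACTA1, CYP1B1 and PODXL the gene floor itself fixed the call, since the lower group was far under 20 CPM. Higher in TBX6 cells were EPHA4, an Eph receptor of forming somite boundaries, at 73.7 CPM against 47.5 CPM in TBX6-zero cells, and DACT1, an intracellular modulator of Wnt signalling, at 57.5 and 33.6 CPM. MEIS2, a partner of HOX proteins, was at 20.1 and 8.96 CPM, PLXNA2, a semaphorin receptor, at 36.5 and 15.4 CPM, and GPC3, a glypican, at 25.9 and 13.5 CPM. SSTR2, a somatostatin receptor, was at 46.8 and 20.8 CPM.

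On the lower side the contractile actins ACTA1 and ACTC1 were at 9.33 and 22.7 CPM and at 14.5 and 24.2 CPM in TBX6 and TBX6-zero cells. The metallothioneins MT1G and MT1E were at 19.6 and 29.8 CPM and at 14.5 and 21.8 CPM. CYP1B1, a cytochrome P450, was at 11.3 and 35.9 CPM, SOCS2, an inhibitor of cytokine signalling, at 20.9 and 46.5 CPM, and PODXL, a sialomucin of epithelial and pluripotent cells, at 7.25 and 21.7 CPM. In all of the genes named in these paragraphs the 1-UMI barcodes lay between the groups, as for CYP1B1 at 19.1 CPM. They were chosen for their difference between the same groups, so this is a description and not a test.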
